A study of Haplochromis burtoni and Eretmodus cyanostictus and Lepidiolamprologus attenuatus with 30 samples.

Results

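A set of 91 genes had low transcript levels in the intestine of the cichlid Lepidiolamprologus attenuatus and clearly higher levels in Haplochromis burtoni and Eretmodus cyanostictus. The 91 genes are 91 of the 38425 gene rows in the count table. They were chosen by their measured levels, as counts per 1000000 counts on genes in the library (CPM). A member had a mean over the 10 libraries of a species of at least 10 CPM in H. burtoni and in E. cyanostictus. Its mean in L. attenuatus was at least 1 CPM and at most 0.25 times that of each of the other species. In H. burtoni and in E. cyanostictus the highest of its 5 section means was under 4 times the lowest. This limit acts on means of 2 fish, and single fish could vary more. A total of 9021 genes met every criterion except the one on the ratio, and the members are 1.01% of them.

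The study sampled 2 fish of each of 3 species, and cut every intestine across into 5 stretches of the same length, section 1 being the most anterior and section 5 the most posterior. Each section of each fish gave 1 library, so there are 30 libraries in 15 groups of 2. The groups are H. burtoni (fish 1 and 2), E. cyanostictus (fish 3 and 4) and L. attenuatus (fish 6 and 7), each in sections 1 to 5, with no treatment and no genetic change named in the labels. Strain, origin, age and sex are not given there, and a section number marks a relative position and not an anatomical boundary.

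As background, the 3 species are known for different feeding habits. E. cyanostictus grazes algae from rocks, L. attenuatus is a predator of fish and small animals, and H. burtoni is a generalist. In the gut of bony fish the anterior intestine takes up much of the lipid, sugar and peptide of a meal, and enterocytes further back take up whole protein into large vacuoles. Bulk libraries hold all cells of a section, so fewer cells of a type and less RNA per cell cannot be told apart. The deposited table identifies genes by number and pairs no number with a name, and none of the numbers (0) matched the gene table of H. burtoni. The functions of the 91 genes are therefore not given here, and the tissue could not be checked against marker genes.

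Libraries held 6311892 to 11353391 counts on genes. The share of counts that fell on no counted gene ranged over 6.75% to 16.5% for H. burtoni, 6.99% to 10.3% for E. cyanostictus and 6.15% to 8.69% for L. attenuatus. The highest of these, in section 4 of fish 2, came from the library with the lowest depth. The rows of the table are common to the 3 species. A read of L. attenuatus that aligned less well to the reference would also lower a gene's count, and this cannot be told apart from a lower transcript level in the table.

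Across the 91 genes the mean level had a median of 38.8 CPM for H. burtoni, 41.7 CPM for E. cyanostictus and 5.46 CPM for L. attenuatus. The first and second of these are close to the medians of the 8930 other genes that met the remaining criteria, 37.0 CPM and 41.0 CPM, while those genes had a median of 34.8 CPM in L. attenuatus. The ratio of the lower of the other species to L. attenuatus had a median of 5.01 over the members, with quartiles of 4.45 and 6.42 and a maximum of 37.2. These values chose the members and are given as a description. Of the 91 ratios, 43 were under 5, 20 were between 5 and 6, 15 between 6 and 8, 4 between 8 and 10, and 9 were 10 or more. The threshold cut through a continuous range. The 3 members just inside it had ratios of 4.003, 4.03 and 4.04, and the 3 genes just outside had 3.995, 3.98 and 3.95.

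As a species mean the genes were low in L. attenuatus and not silent, which the rule itself sets by asking for at least 1 CPM. Single fish could lie lower, with 3 counts in all at 1 member in fish 6 and 6 counts at another in fish 7. The mean count of the members per L. attenuatus library was 10 to 1601, with a median of 47.4 counts. More than 3 counts in all 10 of these libraries were seen at 78 of the 91. Only 27 members reached a mean of 10 CPM in L. attenuatus, whereas 61 had at least 20 CPM in both other species and 20 had at least 100 CPM in both. Together the 91 genes took 0.0544% to 0.330% of the gene counts of an L. attenuatus library. In H. burtoni they took 0.808% to 2.05%, and in E. cyanostictus 0.491% to 2.07%. The 10 L. attenuatus libraries all lay below the 20 others at 43 members. The share with this separation was 1.74% among the 17199 genes with a mean of at least 1 CPM in each species, and the rule itself favours it. With the 5 sections of a fish averaged, both L. attenuatus fish lay below all 4 other fish at 89 members. The rule on species means favours this separation of fish as well. Its share over other genes was not taken, so the 89 are a description.

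**Figure D1:**
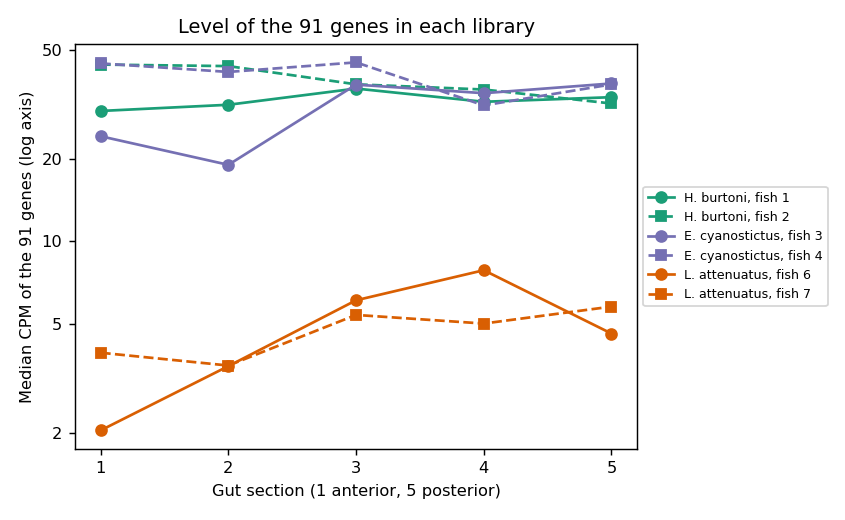
Median level of the 91 genes in each of the 30 libraries, in CPM on a log axis, against gut section. Lines join the 5 sections of a fish, colour marks the species and line style the fish. The L. attenuatus libraries lie between 2.04 and 7.85 CPM and all other libraries between 19.0 and 44.97 CPM.

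In CPM the deficit was not even along the gut. The median over members was 29.9 to 44.1 CPM in the H. burtoni libraries and 19.0 to 44.97 CPM in the E. cyanostictus libraries. In L. attenuatus it was 2.04, 3.51, 6.09, 7.85 and 4.61 CPM in sections 1 to 5 of fish 6. In fish 7 it was 3.92, 3.52, 5.39, 5.01 and 5.78 CPM in the same order. The lowest L. attenuatus libraries were thus those of sections 1 and 2, in both fish. Section by section, the ratio of the lower of the other species to L. attenuatus had a median of 8.56 in section 1 and 7.97 in section 2. It was 4.65 in section 3, 3.58 in section 4 and 4.18 in section 5. L. attenuatus was at most 0.25 times both other species at 84 members in section 1 and at 84 in section 2, but at 62, 35 and 48 members in sections 3, 4 and 5. At 18 of the 91 members it was at most 0.25 times both in all 5 sections. A level of at most 0.5 times that of the other species was more general, being met by 91, 91, 86, 86 and 84 members in sections 1 to 5. In CPM the label of genes low along the whole gut therefore holds for a level below the other species in nearly every section. It holds for the full size of the ratio mainly in the anterior sections. Other genes were also lower there in CPM. The 8930 that met the remaining criteria had medians of 0.816 and 0.897 of their own L. attenuatus mean in sections 1 and 2. The part of the section ratios shared with such genes was not taken out.

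The section profile of L. attenuatus was not a criterion of the rule. Its mean came from the same 10 libraries, however, so a very low level in some sections made it easier to pass. Relative to its own mean in the species, a member's level had a median of 0.609 in section 1, 0.701 in section 2, 1.13 in section 3, 1.36 in section 4 and 1.11 in section 5. In section 1, 85 of the 91 members (93.4%) were below their own mean, against 81.7% of the eligible genes outside the set. In section 4, 7 members (7.69%) were, against 18.8% of those genes. Part of this profile was shared by other genes. The 8930 eligible genes outside the set had medians of 0.816, 0.897, 1.04, 1.15 and 1.09 in the same order. The trimmed mean of M values (TMM), which by construction centres the bulk of genes, moved those medians to between 0.983 and 1.01. With the same scaling the members were at 0.762, 0.814, 1.12, 1.20 and 1.05. Below their own mean were then 75 members (82.4%) in section 1 and 22 (24.2%) in section 4, against 49.7% and 51.9% of the other eligible genes. The highest section of a member in L. attenuatus was section 4 for 42 genes, section 3 for 23, section 5 for 20, section 2 for 5 and section 1 for 1. In H. burtoni the highest section was section 1 for 16 members, 2 for 28, 3 for 19, 4 for 11 and 5 for 17, and in E. cyanostictus the counts were 32, 7, 24, 12 and 16.

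**Figure D2:**
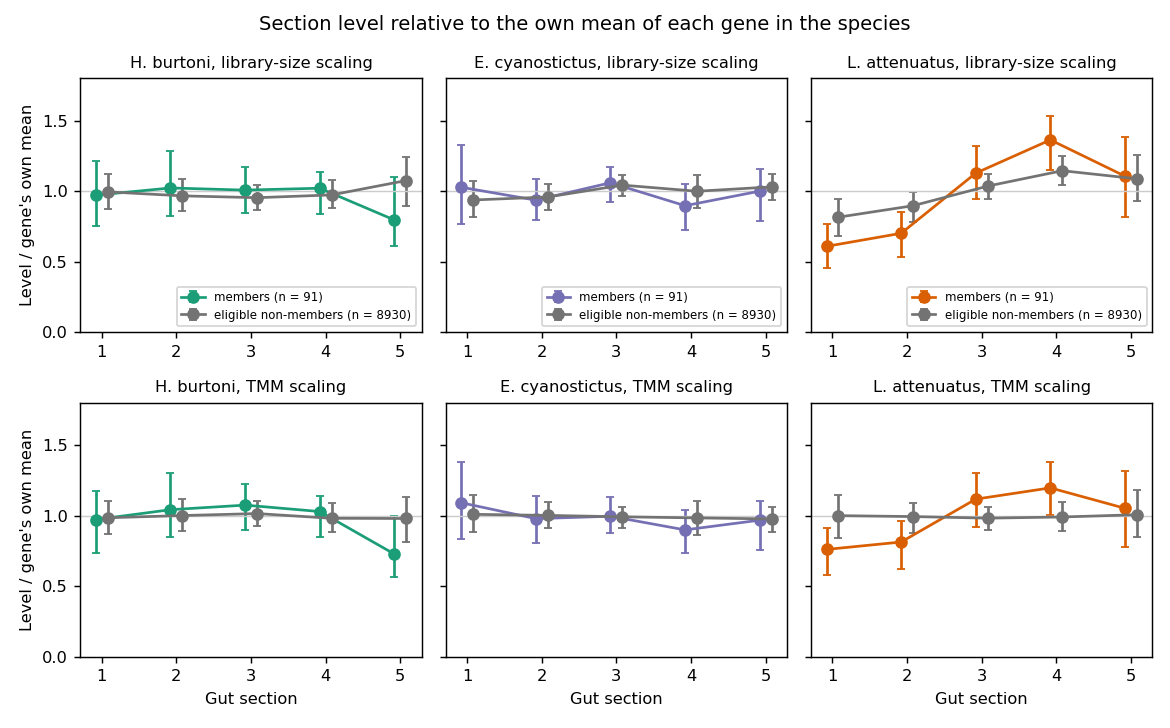
Level in each section divided by the gene's own mean in the species, as the median with quartiles over genes, for the 91 members (colour) and the 8930 other genes that met all criteria but the ratio (grey). The upper row uses CPM and the lower row TMM scaling. Under both scalings the L. attenuatus members lie lowest in section 1, at medians of 0.609 and 0.762, and highest in section 4, at 1.36 and 1.20.

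Both L. attenuatus fish were higher in the posterior sections, although their highest and lowest sections differed. The mean of sections 3 to 5 over the mean of sections 1 and 2 had a median log2 ratio of CPM of 1.10 over 90 members in fish 6 and 0.70 over 91 members in fish 7. It was above 0 at 82 members (91.1%) in fish 6 and at 79 members (86.8%) in fish 7. The eligible genes outside the set were at 0.42 and 0.29, and 80.6% and 77.5% of them were above 0. In the other species the fish went opposite ways. The members were at 0.24 in fish 1 and -0.22 in fish 2 of H. burtoni, and at 0.84 in fish 3 and -0.35 in fish 4 of E. cyanostictus. The flatness required of these species constrains these last 4 values, so no test was made of the difference between species.

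A test between the ends of the gut of L. attenuatus was made over all genes. The fit held section alone and left out the pairing of sections within a fish. At 12 members the level rose from section 1 to section 5, and no member (0) fell. Here p was adjusted over the 19697 genes tested and held to 0.05 (Benjamini-Hochberg, quasi-likelihood test of edgeR, 2 fish per section). Over all genes tested, 7.83% rose and 7.88% fell. The members' shares were 13.2% and 0%. The 0% has a limit at the 8 members at least 10-fold higher in fish 7 than in fish 6, described below. Their log2 changes were between -2.85 and -1.54 with SE of 2.03 to 2.82, so a fall at them could hardly be called in this fit. At an unadjusted p under 0.05 (edgeR), 21 of the 91 members changed, 18 of them upward. Of the 19697 genes tested, 5996 changed at that cut-off, 3123 of them upward. DESeq2 called 13 rises and 1 fall among the members at an adjusted p under 0.05, given without a share over all genes. The median log2 change was 0.47 over the 91 members, of which 61 were above 0, and 0.03 over all genes tested. With the fish entered as a block, 19 members rose and 3 fell, beside 14.6% and 14.4% of all genes. The 3 that fell had log2 changes between -2.44 and -1.09 and mean levels between 5.64 and 13.3 CPM in L. attenuatus. The steepest fall, -2.44 at a mean of 5.64 CPM, rests on fish 7. That member had 3 counts in all in fish 6 and 487 in fish 7. Among all 5 sections 7 members differed, which is 7.69% against 9.35% of all genes. With the block 21 differed, which is 23.1% against 22.5%. Fits without fish 6 or fish 7 called few of all genes, so an absence of calls there is no result about the members. When either fish was left out no member (0) was called in either test, with 1 library per section then assumed to vary like the groups of the other species.

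The 12 members that rose had log2 changes of 1.38 to 2.92, with a median of 1.93 and adjusted p-values (edgeR) from 0.000558 to 0.0386. In CPM, section 5 was 3.58-fold to 11.4-fold above section 1 in fish 6 and 2.96-fold to 10.1-fold in fish 7. Their mean level in L. attenuatus ranged from 2.94 to 180 CPM, and fish 7 was at 0.520 to 1.33 times fish 6. In the other species the fish differed. Section 5 was above section 1 at 7 of the 12 in fish 1, 5 in fish 2, 11 in fish 3 and 3 in fish 4, with median CPM folds of 1.20, 0.714, 2.86 and 0.729. The 12 genes were at most 0.25 times both other species at 12 of 12 in section 1 and at 1 of 12 in section 5. The median ratio of the lower of the other species to L. attenuatus fell from 13.7 in section 1 to 9.17, 4.48, 2.45 and 2.32 in sections 2 to 5. The 12 genes were picked for a rise in these same libraries. Their folds in fish 6 and 7 and the fall of the ratio therefore partly restate that choice. All 7 genes called over the 5 sections were among these 12, with highest section means 4.71 to 10.3 times the lowest.

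The gene with the largest ratio was gene ID 100706238. In H. burtoni it ranged from 261 to 361 CPM over the 5 sections of fish 1 and from 198 to 273 CPM over those of fish 2. In E. cyanostictus it was at 151, 148, 151, 145 and 113 CPM in sections 1 to 5 of fish 3. In fish 4 of that species it was at 1.97, 1.05, 1.15, 1.51 and 0.854 CPM. In L. attenuatus it was at 2.04, 1.82, 2.20, 2.82 and 2.08 CPM in fish 6 and at 1.65, 1.76, 1.32, 2.33 and 1.18 CPM in fish 7. The gene was therefore high in all 15 libraries of 3 fish and low in all 15 libraries of the other 3, and the species mean of 71.4 CPM in E. cyanostictus stood for no single fish. Fish 4, at a mean of 1.31 CPM, lay below both L. attenuatus fish. The difference between E. cyanostictus and H. burtoni did not pass the threshold with both fish (log2 change -2.04, SE 1.58, edgeR adjusted p = 0.414). The log2 change was -8.06 without fish 3 and -1.05 without fish 4, each then a single E. cyanostictus fish against both H. burtoni fish, so no test is read from them.

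Gene ID 100695412 had the second largest ratio, 20.5. In H. burtoni it was at 8.26 to 29.4 CPM in fish 1 and at 11.95 to 54.2 CPM in fish 2. In E. cyanostictus it was at 17.9 to 36.9 CPM in fish 3 and at 32.5 to 139 CPM in fish 4. In L. attenuatus all 10 libraries lay between 0.753 and 1.96 CPM, on 6 to 16 counts each. No library of the other species overlapped with L. attenuatus. Within L. attenuatus its change from section 1 to section 5 was -0.45 on the log2 scale (SE 0.49, edgeR adjusted p = 0.583).

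Ranked by the lower of the H. burtoni and E. cyanostictus means, the highest members had ratios close to the threshold of the rule. Gene ID 100702554 had means of 729 CPM ± 187 for H. burtoni, 1000.5 CPM ± 410 for E. cyanostictus and 180 CPM ± 139 for L. attenuatus (SD over 10 libraries, n = 2 fish), a ratio of 4.05. In L. attenuatus it was at 32.7, 79.5, 268, 429 and 373 CPM in sections 1 to 5 of fish 6. In fish 7 it was at 41.3, 70.6, 138, 164 and 201 CPM. In both fish it was lowest in sections 1 and 2 and higher in all 3 sections behind them. The change from section 1 to section 5 was 2.51 on the log2 scale (SE 0.48, edgeR adjusted p = 0.0111). Gene ID 100533982 had means of 781 CPM for H. burtoni, 882 CPM for E. cyanostictus and 193 CPM for L. attenuatus. In fish 6 it was at 62.2, 159, 412, 552 and 150 CPM in sections 1 to 5, and in fish 7 it stayed between 108 and 129 CPM. The fish of L. attenuatus therefore disagreed on its profile, and its change from section 1 to section 5 did not pass the threshold (log2 change 0.24, SE 0.66, edgeR adjusted p = 0.844). In sections 3 and 4 of fish 6, at 412 and 552 CPM, it was within the 308 to 2107 CPM seen in E. cyanostictus.

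**Figure D3:**
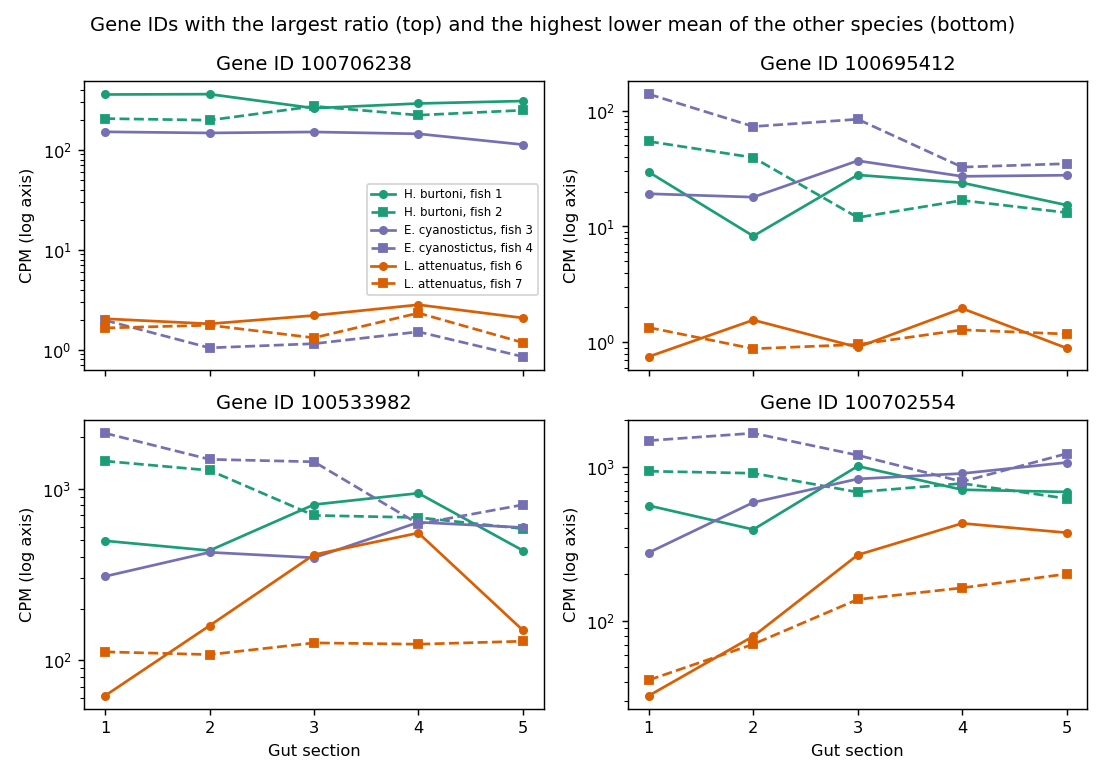
Level in every library, in CPM on a log axis, of the genes with the largest ratio (upper panels) and the highest lower mean of H. burtoni and E. cyanostictus (lower panels), by section and fish. Gene ID 100706238 lies at 0.854 to 1.97 CPM in E. cyanostictus fish 4, beside the L. attenuatus fish, and at 113 to 151 CPM in fish 3.

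Most members were alike in the L. attenuatus fish, and a few were not. The mean of fish 7 was 0.928 times that of fish 6 in the median, with quartiles of 0.665 and 1.16. A difference of at least 2-fold was seen at 17 members, or 18.7%, against 2.96% of the eligible genes outside the set. At 9 members the difference was at least 10-fold, against 7 of the 8930 others. With 1 fish against 1 fish these differences have no replicate. The largest was at a member with a mean of 57.7 CPM in fish 6 (2236 counts in all) and 0.127 CPM in fish 7 (6 counts in all). That member had means of 303 CPM in fish 1, 331 CPM in fish 2, 1171 CPM in fish 3 and 913 CPM in fish 4.

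**Figure D4:**
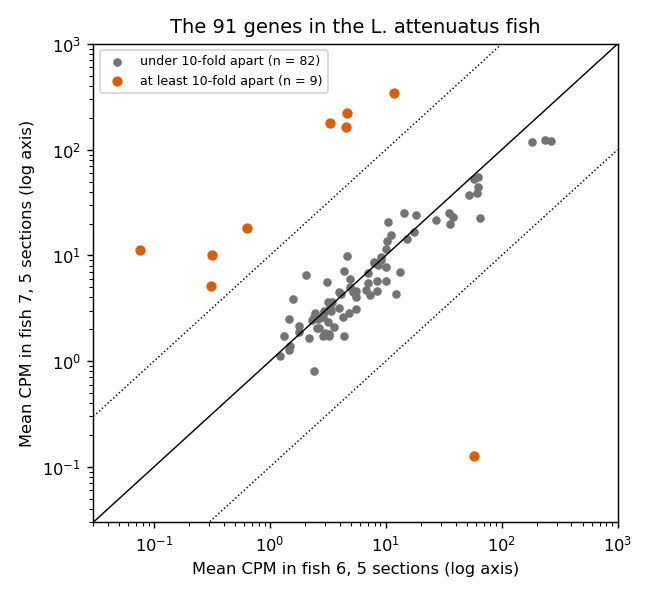
Mean CPM over 5 sections in L. attenuatus fish 6 and fish 7 for each of the 91 genes, on log axes, with lines of equality (solid) and of a 10-fold difference (dotted). Of the 9 genes beyond the dotted lines, 8 lie on the side of fish 7.

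The other 8 of these 9 genes were higher in fish 7, by 16.5-fold to 149-fold. They had means of 0.0750 to 11.9 CPM in fish 6, on 3 to 457 counts over its 5 libraries, and of 5.17 to 342 CPM in fish 7. At only 2 of the 8 was fish 7 itself at most 0.25 times the lower of the other species, so for the remaining 6 the place in the set rests on fish 6. These 8 genes moved together in every species. All 8 were highest in section 3 in fish 1, fish 2 and fish 7, in section 4 in fish 3, and in section 1 in fish 4. In fish 6, where counts were few, the highest section was section 4 for 5 of them. All 8 were higher in fish 2 than in fish 1, by 1.59-fold to 3.54-fold, and higher in fish 4 than in fish 3, by 1.34-fold to 3.58-fold. Summed over the 8 genes, the level in E. cyanostictus ran from 71.3 CPM in section 2 of fish 3 to 9983 CPM in section 1 of fish 4. In fish 3 the sums were 353, 71.3, 946, 3661 and 1072 CPM in sections 1 to 5. In fish 4 they were 9983, 3847, 2035, 491 and 2294 CPM. The highest section thus differed between the fish of 1 species, while the 8 genes shared it within each of these fish.

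Over the 20 libraries of the other species, which share species, fish and depth, log2(CPM + 1) of the 8 genes correlated with a median Pearson's r of 0.960 over the 28 pairs, the lowest being 0.675. Of the 10121 other genes with at least 10 CPM in both species, 20 reached r of at least 0.9 with the mean of the 8, and none of the 83 other members (0) did. All 20 were higher in fish 7 than in fish 6, 19 of them at least 10-fold. The 8 genes were picked for that difference between fish 6 and fish 7. The correlations came from the 20 libraries of the other species, which also entered the choice of the members. Genes that move together are not independent of each other, so this count and the correlations carry no test. The 8 genes' share of the 91 members' summed level was 36.7% for H. burtoni, 22.4% for E. cyanostictus and 26.5% for L. attenuatus. The last value stood for neither fish. In fish 6 the 8 genes summed to 2.04 to 48.7 CPM per library, beside 544 to 2867 CPM for all members. In fish 7 they summed to 146 to 2289 CPM, beside 935 to 3297 CPM. By species, the 91 genes summed highest in section 3 of fish 2, section 1 of fish 4 and section 3 of fish 7. There the 8 held 13078 of 20515 CPM, 9983 of 20735 CPM and 2289 of 3297 CPM. A tissue or cell type unevenly shared among the sections was not tested, because the gene numbers could not be matched to markers.

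**Figure D5:**
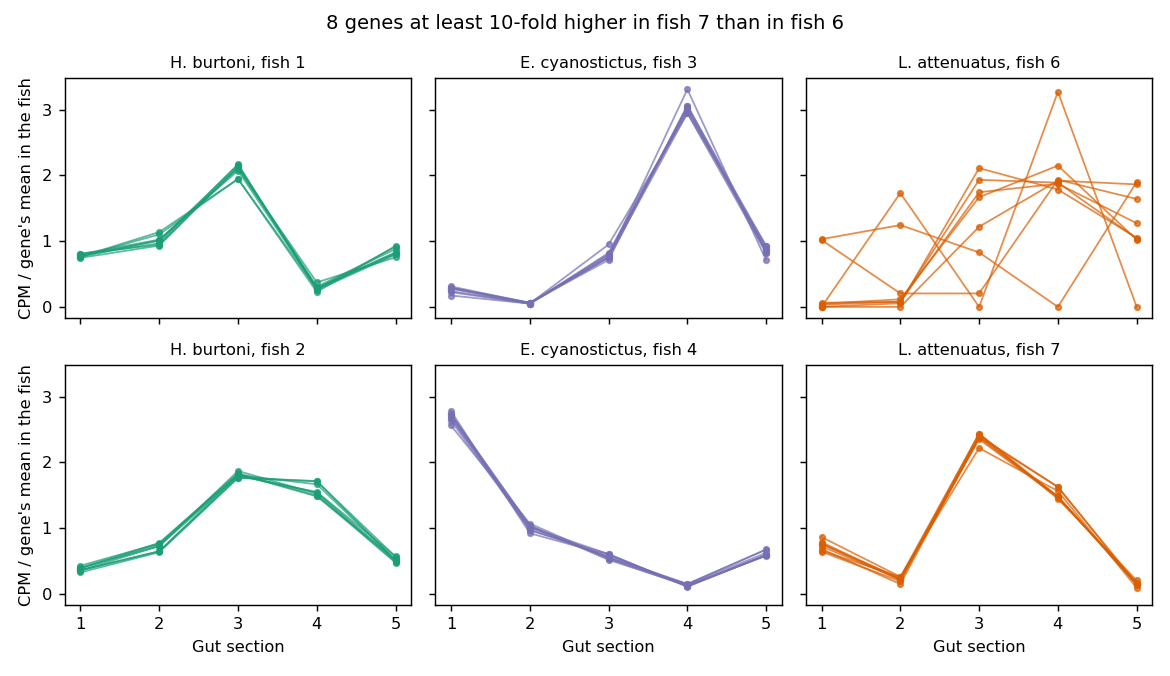
Level of the 8 genes at least 10-fold higher in fish 7 than in fish 6, as CPM divided by the gene's mean over the 5 sections of a fish, against section. Each line is 1 gene and each panel 1 fish. All 8 lines are highest in the same section in every fish but fish 6, where the 8 genes had 3 to 457 counts each over 5 libraries.

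Members also varied between fish in the other species. In H. burtoni 19 of the 91 members differed at least 2-fold between fish 1 and 2, all 19 of them higher in fish 2, against 1.83% of the eligible genes outside the set. In E. cyanostictus 40 members differed at least 2-fold, 35 of them higher in fish 4 and 5 higher in fish 3, against 12.7% of the other genes. At any size of difference, 59 of the 91 members were higher in fish 2 than in fish 1, against 53.7% of the eligible genes. In fish 4, 60 members were higher than in fish 3, against 58.1%. Without the 8 genes that moved together, 13 of the remaining 83 members (15.7%) differed at least 2-fold in H. burtoni. In E. cyanostictus 33 (39.8%) did, and in L. attenuatus 9 (10.8%). The members were chosen on means of these same fish, so the differences between fish are a description.

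Whether the other 2 species differed at these genes was tested on the counts of each fish summed over its sections. The fit held the 6 fish of all 3 species, with 1 shared estimate of the spread per gene. A gap between fish 6 and fish 7 of L. attenuatus therefore also raised the standard error. At the member with 57.7 CPM in fish 6 and 0.127 CPM in fish 7, the log2 change was 1.56 with an SE of 1.70. No member (0) differed between E. cyanostictus and H. burtoni at a threshold of 0.05 on the adjusted p (quasi-likelihood test of edgeR, 24792 genes, 2 fish per species), whereas over all genes tested 6.76% were higher and 7.35% lower in E. cyanostictus. At an unadjusted p under 0.05 (edgeR) there were 10 members, 2 higher and 8 lower. They are 11.0% of the members, against 32.4% of all genes tested. The smallest adjusted p (edgeR) was 0.0589. A fit of the 4 fish of these species alone also called 0 members, given without a share over all genes. DESeq2 called 4 members at an adjusted p under 0.05, a count given without a share over all genes. Log2 changes ranged from -2.04 to 1.56, and 16 members (17.6%) differed at least 2-fold, against 31.3% of all genes tested. The latter include genes below the 10 CPM that the rule asks of both species, so these shares are not of like genes. The rule also asks that L. attenuatus be at most 0.25 times each of these species. It thus used the levels compared here, and limits how far either species can lie below the other. The low count of calls beside all genes tested is therefore partly set by the choice of the members. The standard error had a median of 0.41 over the members and 0.26 over the eligible genes outside the set, of which 7.86% were called. The median log2 change of the members was -0.25 in this fit and -0.02 in CPM, where the eligible genes outside the set were at 0.18. The members thus lay below those genes under either scaling. Without fish 3 or without fish 4 the count of calls was no longer 0. Each such fit holds a single E. cyanostictus fish, and no share over all genes was taken, so no result is read from it.

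Each fish was also left out of the choice, and its own values were then read. Without fish 6 the rule chose 137 genes, of which 60 (43.8%) were at most 0.25 times the lower other species in fish 6, and 129 (94.2%) at most 0.5 times. Without fish 7 it chose 102 genes, with 62 (60.8%) and 90 (88.2%) in fish 7. When a fish of H. burtoni was left out, 81 and 68 genes were chosen, and the left-out fish was at least 4 times L. attenuatus at 64.2% and 85.3% of them. For fish 3 and 4 of E. cyanostictus 84 and 61 genes were chosen, and the shares were 53.6% and 62.3%. Between 1 and 3 genes per round were not lower at all in L. attenuatus when read in the left-out fish. The direction thus held in the left-out fish at nearly all genes, and the 4-fold size at 43.8% to 85.3% of them. Only 1 side of each ratio came from the left-out fish. The other side rested on species means that had chosen the genes, so part of this outcome is built in. No share over other genes was taken. The same rule turned to the other species found 27 genes low in H. burtoni and 29 low in E. cyanostictus, against 91 in L. attenuatus. The difference between these counts was not tested.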

How the data were processed

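The authors deposited 1 table of raw counts per gene ID with a column per library, and per the submitters' processing notes Trimmomatic, STAR and HTSeq were used; versions, genome build and annotation are not given in the sources used here. The 5 rows with htseq-count names for unassigned reads were left out of library sizes and tests; reads on no counted gene made up 6.15% to 16.5% and ambiguous reads 2.58% to 3.45% of a library's counts, and the other 3 rows were 0. The 28690 genes of a RefSeq table for H. burtoni (assembly NCSU_Asbu1) held 0 of the IDs, so the fixed marker and gene lists were not run. At most 4 IDs are printed, by a rule for unnamed IDs: the 2 with the largest ratio and the 2 with the highest lower level of the other species. The members and lists were chosen with earlier results of these data known.

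CPM were counts over the sum of gene rows in a column. Tests used edgeR 4.0.16 in R 4.3.3 (filterByExpr, TMM, robust quasi-likelihood F-test, Benjamini-Hochberg over all genes tested, called under 0.05), and all 91 members passed the filter. Section tests used the 10 L. attenuatus libraries. Alternatives were DESeq2 1.42.0, other normalizations and filters, other thresholds of the rule, the fish as a block, a fit of all 30 libraries and leaving out each fish. P-values measure only the spread between these fish. The fits of section 5 against section 1 and of E. cyanostictus against H. burtoni were tested on simulated data. The difference between fish correlated across genes between sections of a species with r from 0.219 to 0.871 in all 30 pairs of sections, and column names give the fish, so sections of a fish are paired; columns of E. cyanostictus and L. attenuatus carry fish numbers that differ from the labels' 1 and 2, and were mapped by species and section. The fish of a group differed by more than sampling noise (chi-square per degree of freedom 16.3 to 183). Each species has 2 fish, which limits the precision of every value.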

Additional observations from a re-analysis of the deposited data

Results flagged for a closer look

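Gene ID 100533982 had section 5 minus section 1 differences of opposite sign in L. attenuatus and H. burtoni, and in L. attenuatus it was not called and the fish disagreed on its profile. Both L. attenuatus fish were higher in section 5, by a mean of 52.3 CPM, and both H. burtoni fish were lower, the mean difference being -463 CPM. The difference between the species was not tested, and the rule that chose the gene bounds the change in H. burtoni. Within fish the changes were uneven, from 112 to 129 CPM in fish 7, from 62.2 to 150 CPM in fish 6, from 497 to 436 CPM in fish 1 and from 1449 to 585 CPM in fish 2. A search for single outlying libraries over 15 sets of 10 libraries found none (0). The sets were the summed level of the members and the 4 gene IDs in each species. The 0.75 expected by chance holds for 10 independent libraries. Each set here was 5 sections of 2 fish, and differences between fish can hide an outlier. The empty search therefore does not exclude one.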

How the results depend on the processing

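The number of members was 203 with a ratio threshold of 3, 48 with one of 5 and 157 with no limit on section fold. It was 61 to 137 with a fish left out, and under the other settings tried it stayed within 1.5 times of 91. TMM scaling kept 66 genes, all 66 among the 91. Counts of members called over the 5 sections of L. attenuatus were 7 in the fit as reported, 14 with DESeq2, 21 with the replicate block, 2 at an adjusted p under 0.01 and 0 to 0 with a fish left out. Counts between sections 5 and 1 were 12 as reported (12 higher, 0 lower), 22 with the replicate block (19 higher, 3 lower), 3 at an adjusted p under 0.01 (3 higher) and 0 to 0 with a fish left out. DESeq2 called 1 lower member. The fit of all 30 libraries called 10 members (9 higher, 1 lower), beside 2317 of the 22430 genes it tested, in either direction. With fish 6 or fish 7 left out, 1 L. attenuatus library per section remained and few of all genes were called. The counts of 0 are therefore not read as results about the members, and all 12 members kept a rise. The calls with the block included all 12 found without it. Between E. cyanostictus and H. burtoni the count was 0 as reported, 4 with DESeq2 (2 higher, 2 lower), and 0 to 4 with a fish left out (higher 0 to 1, lower 0 to 3); no block could be fitted there, since each fish belongs to 1 species. The median log2 change of the members between sections 5 and 1 was 0.41 to 0.65 with a fish left out. The relative level in section 1 was 0.437 to 0.713 and in section 4 1.17 to 1.53 with a fish left out, alternatives chosen after seeing the data. Gene ID 100533982, not called in either contrast, reversed its small log2 changes. Between sections 5 and 1 it was -0.21 without fish 6 and 0.68 without fish 7. Between E. cyanostictus and H. burtoni it was 0.25 without fish 2, and ranged from -0.84 without fish 4 to 0.38 without fish 3. Gene ID 100702554 ranged from -0.068 without fish 4 to 0.49 without fish 3 between those species. The causes were not tested. No share over all genes was taken for the counts with DESeq2 or at an adjusted p under 0.01. None was taken either for the counts between E. cyanostictus and H. burtoni with a fish left out. Those counts are therefore not read as results about the members. Over the 5 sections 7.69% of members were called against 9.35% of all genes as reported, and 23.1% against 22.5% with the block. Depth limits the lowest members, with a mean of 10 counts per library in L. attenuatus.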
